A study of Mus musculus with 6 samples.

Results

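Interferon-stimulated genes are the genes that cells switch on when an interferon reaches its receptor. The 44 genes described here were listed by name and cover both chains of the type I interferon receptor, STAT and IRF transcription factors, sensors of foreign nucleic acid, the OAS family, interferon-induced GTPases, the ISG15 and PARP modification systems and other antiviral effectors. Their RNA was measured in E18.5 fetal mammary cells and in adult basal mammary cells of female C57Bl6J mice, with 3 biological replicates of each population and 1 one-color Agilent array per replicate. The fetal cells were CD31-CD45-Ter119-EpCAM++CD49f+ and the adult cells, from mice of 8 to 12 weeks, were CD31-CD45-Ter119-BP-1-EpCAM+CD49f+. Both were freshly sorted without any treatment, so the comparison asks how far the resting level of these genes differed between the fetal and the adult basal compartment. Adult tissue was digested overnight and fetal tissue for a shorter time, so stage, sorting gate and digestion cannot be told apart in any difference below. Probes matched 42 of the 44 genes (57 probes) out of 20660 genes with a matched probe on the array. No probe was matched to Mx1 or Mx2, 2 GTPases that are not analysed here. All 42 had at least 1 probe past the filter on low signal, and 2 of the 57 probes, 1 each for Irf1 and Ifih1, fell below it.

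Type I interferons bind a receptor made of IFNAR1 and IFNAR2, whose kinases JAK1 and TYK2 phosphorylate STAT proteins. STAT2 and IRF9 are parts of the complex ISGF3, which binds the interferon-stimulated response element (ISRE) in the promoters of its targets, whereas interferon-γ acts mainly through the gamma-activated sequence (GAS). Many targets are themselves parts of the pathway, such as IRF7, which drives interferon genes, and USP18, which removes ISG15 and restrains the receptor. Epithelia at body surfaces are known to hold a low level of many of these genes without infection.

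Promoter stretches are given first for the called members in which the ISRE, the element bound by ISGF3, was found before the start. RefSeq promoter windows of the GRCm38.p6 build, from 250 bases before to 50 bases after an annotated transcript start, were found for 35 of the 44 genes. They were searched on both strands for the ISRE core, which is GAAA followed after any 2 bases by GAAA again. In each stretch the bases of the matches are in capitals, the stretch is written 5′ to 3′ on the strand of the gene, and the core reads TTTC, any 2 bases, TTTC where it lies on the other strand.
Ifit1 (chr19:34640773-34640825, + strand): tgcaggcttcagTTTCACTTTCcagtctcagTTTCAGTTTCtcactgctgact
Ifit3 (chr19:34583361-34583428, + strand): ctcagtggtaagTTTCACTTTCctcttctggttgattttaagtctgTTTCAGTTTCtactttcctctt
Isg15 (chr4:156200863-156200908, - strand): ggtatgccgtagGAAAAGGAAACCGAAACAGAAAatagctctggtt
Gbp3 (chr3:142559987-142560026, + strand): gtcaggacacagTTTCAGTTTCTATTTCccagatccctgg
Irgm1 (chr11:48871423-48871462, - strand): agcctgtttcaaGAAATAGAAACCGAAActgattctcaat
Igtp (chr11:58199510-58199543, + strand): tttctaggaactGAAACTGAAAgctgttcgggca
Stat2 (chr10:128270264-128270297, + strand): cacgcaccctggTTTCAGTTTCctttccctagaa

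Isg15 held 3 overlapping matches, the first beginning 78 bases before the start, and Gbp3 and Irgm1 held 2 overlapping matches each. Ifit1 and Ifit3 held 2 separate matches each, at 104 and 85 and at 156 and 122 bases before the start. In all, 17 of the 35 members with a window (48.6%) held the core, against 1079 of 27025 genes (3.99%) and 1131 of 32851 windows (3.44%) over the whole table. By role, the core was found in 4 of 4 GTPases, 3 of 4 sensors, 2 of 4 OAS genes, 6 of 14 effectors, 1 of 4 STAT/IRF factors, 1 of 3 genes of the ISG15 and PARP systems and 0 of 2 receptor chains. Of the 12 called members with a window 7 held it, and of the 23 members that were tested and not called 10 did. The GAS letters TTCNNNGAA, which read the same on both strands, were present in 10 of 35 members (28.6%) and in 9.55% of all genes. In Bst2 and Ifitm3 a GAS match overlapped an ISRE core match. A match is a run of letters in a window and no evidence that a factor binds there.

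**Figure D1:**
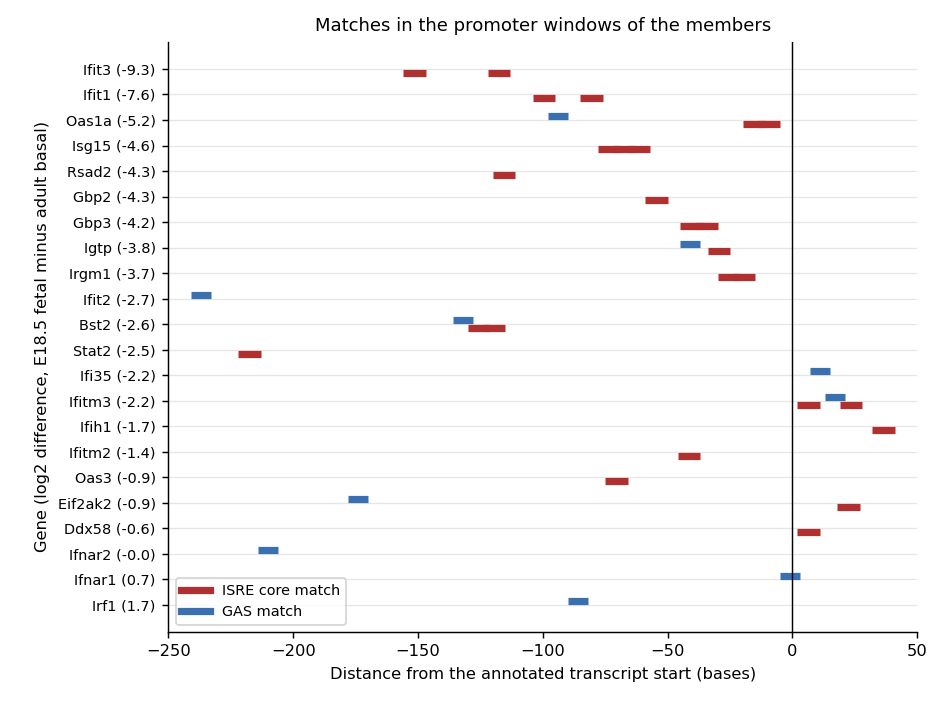
Positions of ISRE core matches (red) and GAS matches (blue) in the promoter windows of the 22 members that hold either, by distance in bases from the annotated transcript start (vertical line). Genes are ordered by their log2 difference, fetal minus adult basal, given in parentheses; Isg15 shows 3 overlapping matches, and Irf1, at the bottom, shows a GAS match alone.

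Nearly all of these genes had a higher signal in the adult basal cells. Values are log2 of the spot signal after quantile normalization over the 6 arrays, and differences are fetal minus adult basal on that scale, from limma. Of the 42 genes tested, each by its brightest probe, 40 were lower in the fetal cells (52.5% of all genes tested were), and the median difference was −2.59 with quartiles of −4.38 and −1.76, against a median of −0.04 and quartiles of −0.50 and 0.57 over all 15734 genes tested. Dhx58, Herc6, Ifit1, Ifit2, Ifit3, Oas3, Rsad2 and Xaf1 had a fetal mean under the filter boundary of 5.95. They passed through the adult basal arrays alone, which fixed their direction. With no low-signal filter 40 of 42 members were also lower in fetal cells, with a median of −2.59. A gene was called when the Holm-adjusted p was at most 0.05 and the difference at least 2-fold. Of the members 16 were called higher in adult basal cells, where 5.21% of all genes tested were, and 0 were called higher in fetal cells, where 6.03% of all genes were. When p-values were adjusted by Benjamini-Hochberg, 34 were called higher in adult basal cells (background 13.9%) and 1, Irf1, higher in fetal cells (background 15.8%), and at an unadjusted p below 0.05 in limma 38 and 1 were (backgrounds 32.0% and 31.8%). For 38 members all 3 adult basal arrays were above all 3 fetal arrays, which held for 35.0% of all genes, and for Irf1 the reverse held (33.4% of all genes). The smallest p of an exact permutation test is 0.10 with 3 arrays in each population, so a call rests on limma's pooling of variance across probes. Of the 16 calls, those of Dhx58, Ifit1, Irf7, Isg15, Oasl2, Rtp4, Samd9l and Usp18 held under every alternative setting and with any 1 array left out, and the other 8 were lost under at least 1 of these. For 8 of the 16 the fold was more than 1.5 times smaller with normexp background correction, at which it was 7.27 for Irf7, 7.71 for Dhx58, 19.5 for Ifi44, 20.2 for Xaf1, 20.8 for Parp14, 22.3 for Usp18, 35.0 for Ifit1 and 68.3 for Ifit3. In RNA from sorted bulk cells, fewer cells with a transcript and less transcript per cell cannot be told apart.

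**Figure D2:**
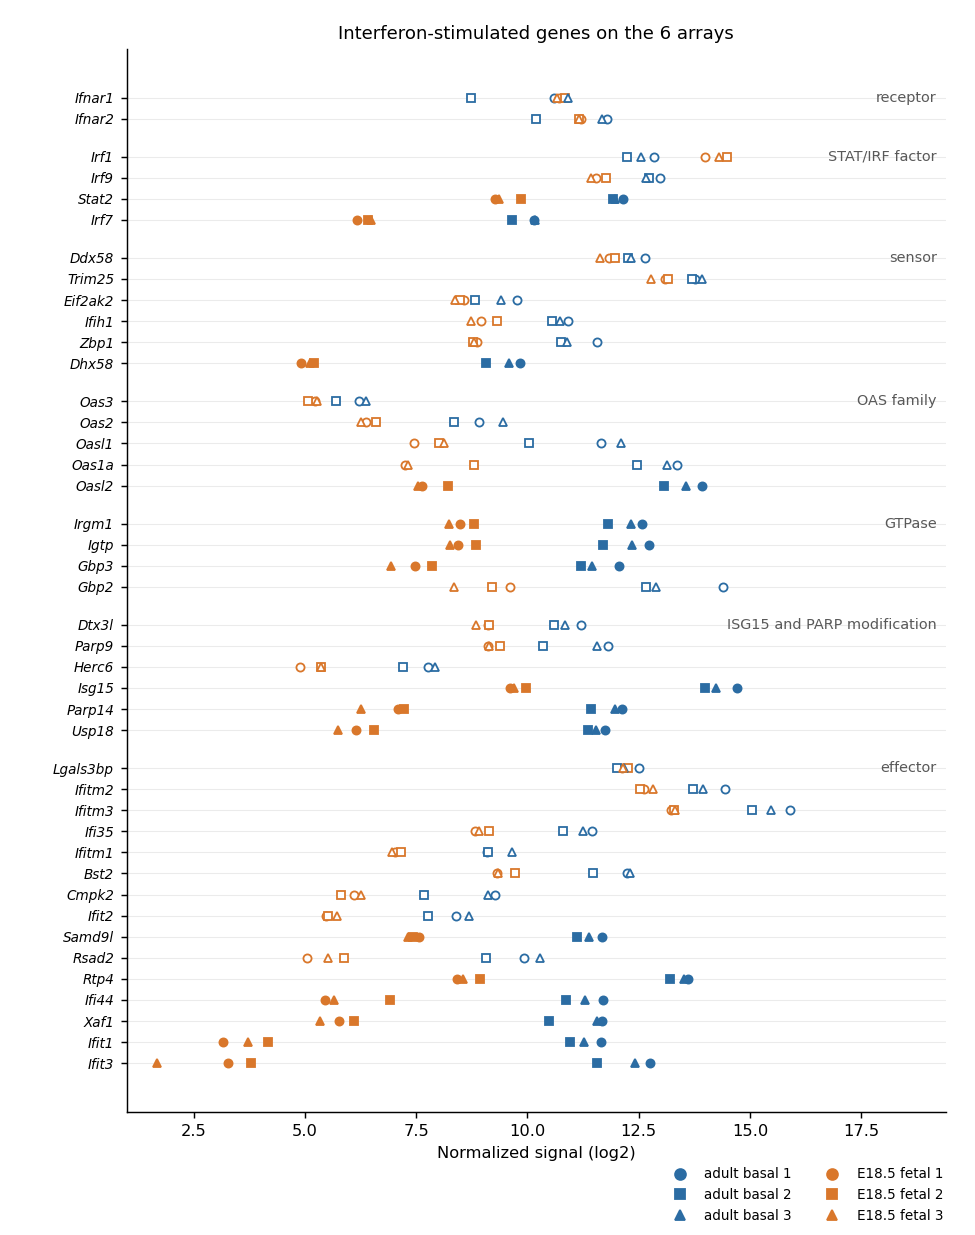
Normalized signal (log2) of the 42 measured members on each array, grouped by role. Blue symbols are the 3 adult basal arrays and orange symbols the 3 fetal arrays, 1 symbol shape per replicate, and filled symbols mark the 16 members called with Holm adjustment; the populations are apart for every member but Ifnar1, Ifnar2 and Lgals3bp, and only in Irf1 do the fetal arrays lie to the right.

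Neither chain of the receptor was called. Ifnar1 measured 10.60, 8.74 and 10.92 on adult basal arrays 1, 2 and 3 and 10.70, 10.85 and 10.66 on the fetal arrays. Ifnar2 measured 11.78, 10.19 and 11.68 on the adult basal arrays and 11.21, 11.16 and 11.15 on the fetal arrays. In both genes adult basal replicate 2 was the lowest of the 6 arrays. The other adult values lay near the fetal ones for Ifnar1 and above all of them for Ifnar2. With 1 array left out the Ifnar2 difference was as low as −0.554. The fitted differences were 0.65 ± 0.52 (SE) for Ifnar1 and −0.04 ± 0.40 for Ifnar2, with Benjamini-Hochberg adjusted p of 0.31 and 0.93 in limma. The other 2 probes of Ifnar1 pointed the other way, at −0.31 and −0.38, so no direction can be given for this gene.

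Among the factors that carry the signal, Irf7 differed most. Irf7 measured 10.15, 9.65 and 10.17 in the adult basal cells and 6.18, 6.42 and 6.49 in the fetal cells. Its signal was thus 12.3-fold higher in adult basal cells (difference −3.63 ± 0.17, Holm-adjusted p = 0.0017 in limma). Stat2, a part of ISGF3, measured 12.15, 11.93 and 11.96 against 9.28, 9.86 and 9.37, a 5.69-fold difference (Holm-adjusted p = 0.022). The Stat2 call was lost under 9 of 18 alternatives, slide as a block among them. Irf9, the DNA-binding part of the same complex, measured 12.99, 12.74 and 12.67 in adult basal and 11.55, 11.76 and 11.44 in fetal cells. The groups of Irf9 did not overlap, but its difference of −1.22 ± 0.13 was called with Benjamini-Hochberg adjustment (0.00016) and not with Holm's (0.55). All 3 are both parts and targets of the type I pathway.

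Irf1 ran the other way and was the single member with a higher fetal signal in every array. Irf1 encodes the first described interferon regulatory factor, which is induced chiefly by interferon-γ and also by prolactin and cell stress. It measured 12.84, 12.24 and 12.55 on the adult basal arrays and 13.99, 14.48 and 14.31 on the fetal arrays. The difference of 1.71 ± 0.19 amounts to a 3.28-fold higher fetal signal, with an adjusted p of 0.57 by Holm and 0.00017 by Benjamini-Hochberg in limma. A second, dim Irf1 probe below the filter measured 4.43, 4.87 and 5.0 in adult basal and 5.15, 5.49 and 5.57 in fetal cells, also without overlap. The Irf1 promoter window held the GAS letters and no ISRE core, and its GAS match, in capitals, began 90 bases before the start in this stretch.
Irf1 (chr11:53769912-53769944, + strand, GRCm38.p6): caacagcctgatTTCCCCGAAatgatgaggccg

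Sensors of nucleic acid had smaller differences, apart from Dhx58. All 6 sensors were higher on every adult basal array than on any fetal array (35.0% of all genes were), with a median difference of −1.29. With Holm adjustment 1 was called (background 5.21%) and with Benjamini-Hochberg adjustment 3 were (background 13.9%). Dhx58 encodes LGP2, a helicase that modulates the RNA sensors RIG-I and MDA5. It measured 9.83, 9.07 and 9.59 in adult basal cells and 4.91, 5.22 and 5.13 in fetal cells, a 21.3-fold difference (Holm-adjusted p = 0.0015 in limma) that was 7.71-fold with normexp background correction. The sensors themselves differed less. Ddx58, which encodes RIG-I, had the smallest difference, −0.60 ± 0.15 by its brightest probe and −1.77 by its other probe, and Ifih1, which encodes MDA5, had a difference of −1.73. Eif2ak2, the RNA-dependent kinase PKR, and Trim25, the ubiquitin ligase that acts on RIG-I, differed by −0.86 and −0.79, under the 2-fold limit of a call.

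The probes of Zbp1, a sensor of Z-form nucleic acid, differed in their call. By the brightest probe Zbp1 measured 11.57, 10.75 and 10.89 in adult basal and 8.86, 8.79 and 8.81 in fetal cells, a difference of −2.25 ± 0.21 (Holm-adjusted p = 0.20). The dimmer probe measured 8.70, 8.22 and 8.55 against 4.95, 4.66 and 4.64, a difference of −3.74 ± 0.16 (Holm-adjusted p = 0.00082). Neither probe had overlapping groups.

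OAS enzymes make the 2′-5′ oligoadenylates that activate RNase L, and the OAS-like proteins Oasl1 and Oasl2 belong to the same family. All 5 were higher on every adult basal array than on any fetal array (35.0% of all genes were), with a median difference of −3.40. With Benjamini-Hochberg adjustment 4 were called (background 13.9%). Oasl2 measured 13.93, 13.06 and 13.57 in adult basal cells and 7.63, 8.21 and 7.55 in fetal cells. At 52.9-fold (difference −5.72 ± 0.26, Holm-adjusted p = 0.0015 in limma), it had the largest difference of the family. Oas1a was called by 1 of its probes. The brightest Oas1a probe measured 13.35, 12.46 and 13.14 against 7.25, 8.81 and 7.33, with fetal replicate 2 above the other fetal arrays, and its difference of −5.19 ± 0.44 missed the Holm limit (0.10). The other Oas1a probe measured 11.30, 10.07 and 11.08 against 6.75, 6.71 and 6.47, a difference of −4.17 ± 0.30 (Holm-adjusted p = 0.036). Oasl1 and Oas2 differed by −3.40 and −2.49 (Oas2 by −1.90 with normexp background correction) without a Holm call, and Oas3 had the smallest difference, −0.91 ± 0.18, with dim signal in both populations. Close copies of Oas1a exist in the mouse genome, and their part in its signal was not tested.

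The 4 interferon-induced GTPases of the list that were measured had similar differences. These proteins gather on the vacuoles of intracellular microbes. All 4 had differences between −4.26 and −3.73, and 3 were called (background 5.21%). Such GTPases outside the list varied far more by brightest probe, with −4.41 for Irgm2, −2.92 for Gbp7, −0.99 for Gbp6 and −0.34 for Tgtp1. Gbp3 measured 12.05, 11.21 and 11.46 on the adult basal arrays and 7.47, 7.86 and 6.93 on the fetal arrays, a 17.8-fold difference (Holm-adjusted p = 0.027 in limma). Igtp, also known as Irgm3, measured 12.74, 11.70 and 12.34 against 8.43, 8.84 and 8.26, a 13.5-fold difference (Holm-adjusted p = 0.039). Irgm1, a regulatory member of the immunity-related GTPases, measured 12.57, 11.82 and 12.32 against 8.48, 8.81 and 8.24, a 13.3-fold difference (Holm-adjusted p = 0.011). The calls of Gbp3 and Igtp were lost with slide as a block, and those of all 3 with some single arrays left out. In Gbp3, Igtp and Irgm1 alike, replicate 2 was the lowest of the adult basal arrays and the highest of the fetal arrays. Gbp2 had the largest difference, −4.26 ± 0.50, and was not called by Holm (0.80). Its adult basal replicate 1, at 14.39, lay above the other adult arrays, at 12.66 and 12.90.

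ISG15 is a ubiquitin-like protein that is conjugated to other proteins during the interferon response. Isg15 measured 14.71, 14.00 and 14.24 in adult basal cells and 9.61, 9.98 and 9.70 in fetal cells, a 23.5-fold difference (Holm-adjusted p = 0.0011 in limma). Its second probe gave a larger difference, −5.58, and was called too. Usp18, which encodes the protease that removes ISG15, measured 11.75, 11.36 and 11.55 against 6.14, 6.55 and 5.75, a 42.3-fold difference (Holm-adjusted p = 0.00051). By brightest probe this was the largest difference of the group, although the second Isg15 probe was 47.9-fold higher in adult basal cells. Parp14, a mono-ADP-ribosyltransferase, measured 12.14, 11.44 and 11.98 against 7.10, 7.22 and 6.26, a 31.8-fold difference (Holm-adjusted p = 0.0079) whose call was lost under 4 of 18 alternatives. Between the lowest adult basal and the highest fetal array, the gap was 4.02 for Isg15, 4.81 for Usp18 and 4.21 for Parp14. Parp9 and Dtx3l, whose proteins form a complex, and Herc6, the mouse ligase for ISG15, differed by −2.03, −1.85 and −2.43 and were called with Benjamini-Hochberg adjustment and not with Holm's. The second Herc6 probe had no fetal array well above background, and its signal was at least 5.33-fold higher in adult basal cells.

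By fitted values on the scale used here, the effectors Ifit3 and Ifit1 had the largest differences of the list. With normexp background correction Ifit1 was 35.0-fold higher in adult basal cells, below Oasl2 at 39.5-fold. Ifit3, whose protein works with IFIT1 on foreign RNA, measured 12.75, 11.56 and 12.42 on the adult basal arrays and 3.27, 3.80 and 1.68 on the fetal arrays. On no fetal array was Ifit3 well above background, so its signal was at least 354-fold higher in adult basal cells on this scale (Holm-adjusted p = 0.0092 in limma, a call lost under 5 of 18 alternatives). The bound does not carry over to other background settings, under which the fitted fold was 68.3 (normexp correction) or 198 (offset of 16 before log2). Here and for Herc6 the bound sets the adult mean against the mean, over the fetal arrays, of the probe's own value or the lowest value well above background, whichever was higher. Ifit1, whose protein binds viral RNA that lacks host cap methylation, measured 11.65, 10.97 and 11.28 against 3.17, 4.17 and 3.73, and was called (Holm-adjusted p = 0.00031). Only 1 of 3 fetal arrays was well above background for Ifit1, so its fitted fold of 195 rests largely on fetal values that set no level. With normexp background correction the fitted fold was 35.0 and with an offset of 16 added before log2 it was 86.7. Ifit2, of the same family, had a much smaller difference of −2.72 ± 0.23.

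A further 4 effectors were called, which made 6 of the 15 (background 5.21%). Xaf1, an antagonist of the apoptosis inhibitor XIAP, measured 11.67, 10.49 and 11.56 against 5.77, 6.10 and 5.34, a 45.4-fold difference (Holm-adjusted p = 0.011 in limma) whose call was lost under 8 of 18 alternatives. Its dimmer probe differed by −2.28 and just missed the limit (Holm-adjusted p = 0.054). Ifi44 measured 11.71, 10.86 and 11.29 against 5.46, 6.92 and 5.65, a 38.7-fold difference (Holm-adjusted p = 0.047), and fetal replicate 2 again stood above the other fetal arrays. The Ifi44 call was lost under 11 of 18 alternatives, slide as a block among them. Rtp4, which encodes a receptor transporter protein, measured 13.61, 13.19 and 13.52 against 8.42, 8.94 and 8.55, a 27.9-fold difference (Holm-adjusted p = 0.00030). Samd9l, a restriction factor and regulator of translation, measured 11.67, 11.11 and 11.39 against 7.56, 7.42 and 7.31, a 15.6-fold difference (Holm-adjusted p = 0.00063), and its second probe was also called, at −5.91. By brightest probe, the smallest gap between the lowest adult basal and the highest fetal array among these 4 genes was 3.55, in Samd9l. The dimmer Xaf1 probe had a gap of 1.82.

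Of the other 9 effectors, 8 had the same direction and were called with Benjamini-Hochberg adjustment alone (background 13.9% with that adjustment). They were Rsad2 (viperin), Ifit2, Cmpk2, Bst2 (tetherin), Ifi35 and the membrane proteins Ifitm1, Ifitm2 and Ifitm3, with differences from −4.27 for Rsad2 to −1.37 for Ifitm2. With normexp background correction the fold fell from 19.3 to 8.47 for Rsad2, from 6.60 to 3.28 for Ifit2 and from 6.15 to 3.86 for Cmpk2. Ifitm1 and Rsad2 were nearest to the limit, with Holm-adjusted p of 0.051 and 0.060 in limma. Lgals3bp, a secreted glycoprotein that binds galectins, was the effector with the smallest difference, and its probes disagreed. The brightest Lgals3bp probe measured 12.51, 12.02 and 12.18 in adult basal and 12.14, 12.26 and 12.14 in fetal cells, with overlapping groups and a difference of −0.06 ± 0.14. The other probe measured 13.53, 12.35 and 13.00 against 7.82, 8.25 and 7.74, a difference of −5.02 ± 0.30 that was called (Holm-adjusted p = 0.0088). Which of these probes follows the main Lgals3bp transcript was not tested.

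**Figure D3:**
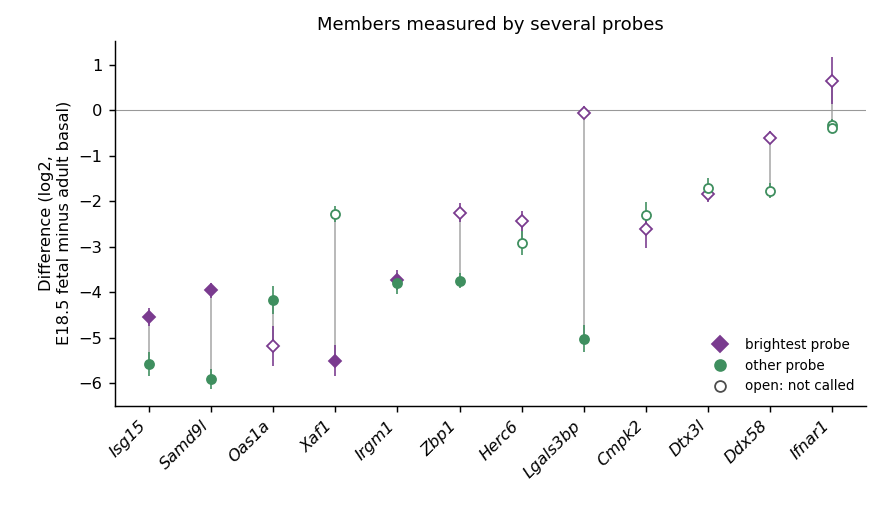
Difference (log2, fetal minus adult basal, with its standard error) of each probe for the 12 members with more than 1 probe past the filter. Purple diamonds are the brightest probe of a gene and green circles the others, and filled symbols are called with Holm adjustment; the probes of Lgals3bp lie at −0.06 and −5.02, and those of Irgm1 at −3.73 and −3.80.

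Set side by side by brightest probe, the median difference was −3.95 for the 4 GTPases and −3.49 for the 6 genes of the ISG15 and PARP systems. It was −3.40 for the 5 OAS genes, −2.72 for the 15 effectors, −1.86 for the 4 STAT/IRF factors and −1.29 for the 6 sensors. The receptor chains had a median of 0.30 but have no place in this order. No direction can be given for Ifnar1, which was −0.0216 without adult basal replicate 2. The ranges of the roles overlapped widely, from −5.50 to −0.06 in the effectors other than Ifit1 and Ifit3, which were not well above background on most or all fetal arrays, and from −4.41 to −0.60 in sensors, and the GTPases lay inside the range of the effectors. The order also depends on the probe read. Among effectors the other probes of Lgals3bp (−5.02 against −0.06) and Samd9l (−5.91 against −3.96) had larger differences. Those of Xaf1 (−2.28 against −5.50) and Cmpk2 (−2.30 against −2.62) had smaller ones. The place of the effectors changes with the Lgals3bp probe alone. Differences between the roles were not tested, since the genes of a role are not replicates.

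**Figure D4:**
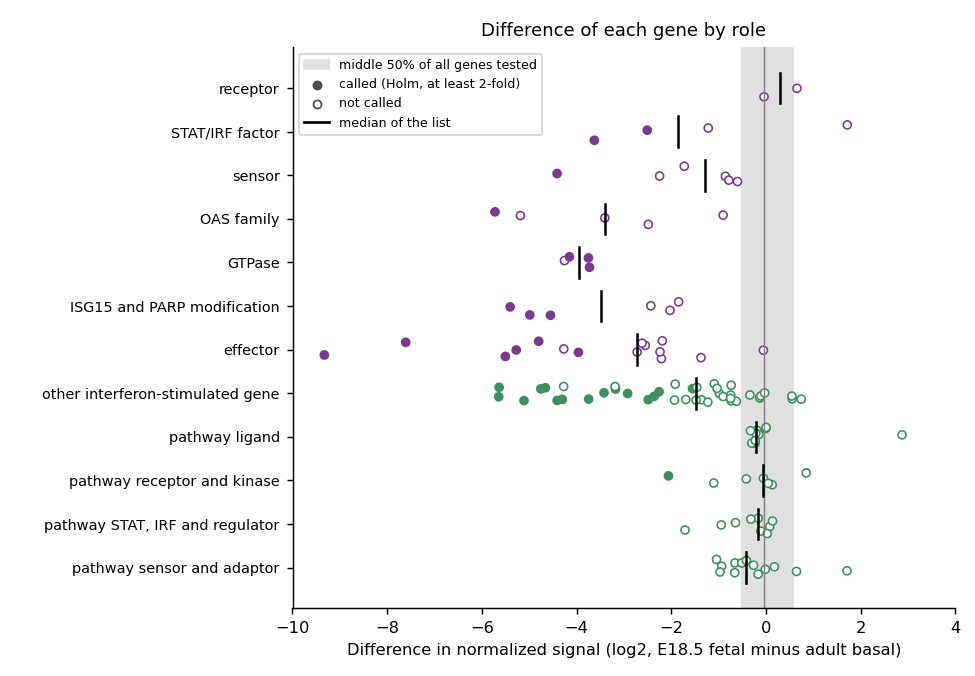
Difference (log2, fetal minus adult basal) of each gene in the 7 roles of the list (purple) and in the other interferon lists (green). Filled points are called with Holm adjustment, black bars are list medians and the grey band holds the middle 50% of all genes tested; the medians of the 6 roles other than receptor and of the other interferon-stimulated genes lie left of the band, those of the remaining lists inside it. Ifit3, Trim30a and Ifnk are drawn at their fitted values, although 1 of the populations was not above background.

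Other interferon-stimulated genes, 50 by name, were examined in the same way. Of the 41 tested, 38 were lower in fetal cells (52.5% of all genes), 15 were called higher in adult basal cells (background 5.21%) and 0 higher in fetal cells (background 6.03%), and the median difference was −1.48. At an unadjusted p below 0.05 in limma 33 and 3 were (backgrounds 32.0% and 31.8%). Ifi44l, Ifit3b, Ifitm6, Slfn2, Slfn8 and Trim30a passed the filter through the adult basal arrays alone, which fixed their direction. The called genes with the largest differences measured in both populations were Ifi27l2a (−5.65), Ifit3b (−5.64), Lgals9 (−4.76), Phf11d (−4.66), Irgm2 (−4.41), Ifi27 (−4.30), Ifi47 (−3.75), Isg20 (−3.42) and Parp12 (−3.18). Trim30a was called too, but it had no fetal array well above background and was at least 7.80-fold higher in adult basal cells, so it has no place in this order. Isg20 encodes an exonuclease that degrades viral RNA, Lgals9 a galectin, and Irgm2 and Ifi47 further immunity-related GTPases. Ifit3b is a close copy of Ifit3, and how far each probe binds the other transcript was not tested. The other 3 genes, with values above 0, were Ifi30 (0.55), a lysosomal thiol reductase, Nt5c3 (0.54) and Pnpt1 (0.74), all under 2-fold.

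Genes upstream of the response had smaller differences. Jak1 (−0.06 ± 0.12) and Tyk2 (0.04 ± 0.11), the kinases of the type I receptor, had overlapping groups. Ifngr1, the ligand-binding chain of the interferon-γ receptor, was the single gene called among 7 receptors and kinases (background 5.21%). It measured 12.63, 12.16 and 12.28 in adult basal and 10.20, 10.41 and 10.28 in fetal cells, a 4.17-fold difference (Holm-adjusted p = 0.029 in limma), whereas Ifngr2, its partner chain, differed by −0.42 and the interferon-λ receptor chain Ifnlr1 by 0.85. Of 9 further STAT, IRF and regulator genes tested 0 were called. Higher in adult basal cells, 1 was called with Benjamini-Hochberg adjustment (background 13.9%) and 3 had an unadjusted p below 0.05 in limma (background 32.0%). The negative regulator Socs1 differed by 0.02.

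Sensors and adaptors outside the list had a median difference of −0.42 over 13 genes, with 0 called by Holm in limma. With Benjamini-Hochberg adjustment 1 was higher in each population (backgrounds 13.9% in adult basal and 15.8% in fetal cells). At an unadjusted p below 0.05 in limma 8 were higher in adult basal and 2 in fetal cells (backgrounds 32.0% and 31.8%). Mavs, the mitochondrial adaptor of RIG-I and MDA5, measured 10.55, 10.65 and 10.63 in adult basal and 9.94, 10.12 and 10.23 in fetal cells and differed by −0.51 ± 0.11, under 2-fold.

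No interferon gene was called. Of 18 genes for type I, II and III interferons, 11 were tested, and their median difference was −0.22. By Holm 0 were called in limma, and at an unadjusted p below 0.05 1 was higher in each population (backgrounds 32.0% and 31.8%). The interferon-α genes tested, Ifna1, Ifna2, Ifna5, Ifna7, Ifna11, Ifna12, Ifna13, Ifna14 and Ifnab, differed by between −0.33 and −0.01, and Ifnl3 by 0.00. Population means of these interferon-α probes ran from 6.90 (Ifna11, fetal) to 11.35 (Ifna14, adult basal). Adult basal replicate 2 was the highest adult array for 10 of the 11 interferon genes (90.9%, all genes 34.9%). Whether these probes measure interferon-α transcripts was not tested. Ifnk, an interferon made by epithelia, had no adult basal array well above background, and its fetal values of 6.04, 6.94 and 6.25 were at least 5.88-fold higher, which was called with Benjamini-Hochberg adjustment (0.0012) and not with Holm's. Ifnb1, Ifng, Ifne and Ifna4 fell below the filter.

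Within each population the members moved between arrays together. Adult basal replicate 2 was the lowest adult array for 40 of 42 members (95.2%), against 38.0% of all genes tested, and its members lay a median of 0.42 below the mean of the 3 adult arrays. Adult basal replicate 1 was the highest for 31 members (73.8%, all genes 36.6%), and fetal replicate 2 was the highest fetal array for 30 members (71.4%, all genes 32.0%). The spread was wider in adult cells, with a median SD of 0.39 over the members, than in fetal cells, with a median SD of 0.21, and over all genes the median SDs were 0.18 and 0.12. These shifts were smaller than the median difference between the populations. Adult basal replicate 2 is also the only adult array on its slide, which it shared with fetal replicates 2 and 3, so replicate and slide cannot be told apart in this shift. Within the first slide 41 of 42 members were lower in fetal cells with a median difference of −3.02, and within the other 38 were, with a median of −2.01 (over all genes, medians of −0.00 and −0.07).

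**Figure D5:**
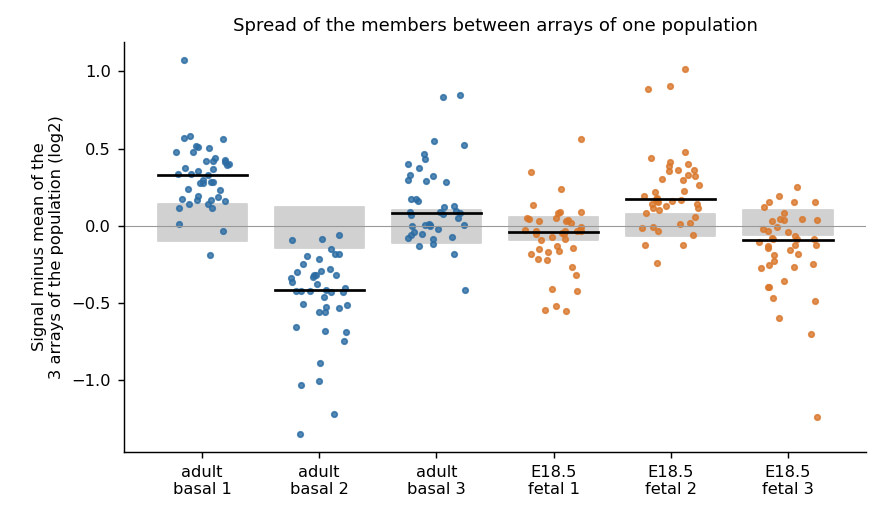
Signal of each member minus its mean over the 3 arrays of the same population (log2), for adult basal (blue) and fetal (orange) arrays. Black bars are medians of the 42 members and grey boxes the middle 50% of all genes tested; the median lies below the box on adult basal replicate 2, at −0.42, and fetal replicate 3, at −0.095, and above it on adult basal replicate 1, at 0.33, and fetal replicate 2, at 0.17.

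Markers of the sorted cells and of other cell types were read on the same arrays. Of 7 basal markers, Acta2, Cnn1, Krt5, Mylk and Oxtr were called higher in adult basal cells (background 5.21%). Krt14 was not, and the probes of Trp63 (p63) disagreed. Krt14 measured 15.25, 13.39 and 15.46 in adult basal and 13.78, 13.37 and 13.36 in fetal cells, with overlapping groups and its lowest adult value on replicate 2 (difference −1.20, Benjamini-Hochberg adjusted p = 0.077 in limma). One Trp63 probe measured 13.69, 13.59 and 13.69 in adult basal and 10.61, 10.47 and 10.69 in fetal cells and was called (−3.06 ± 0.10, Holm-adjusted p = 0.00019 in limma), and the other differed by −0.08 ± 0.10. Of 9 luminal markers, 4 were called higher in fetal cells (background 6.03%) and 0 higher in adult basal cells. Among the 4 were the luminal progenitor genes Elf5 (7.55) and Kit (4.0). Esr1 and Krt19 (−1.22) were called higher in adult basal cells with Benjamini-Hochberg adjustment alone. Only 1 of 3 fetal arrays was well above background for Esr1, so its fitted −3.58 is no exact difference. At an unadjusted p below 0.05 in limma 3 were higher in adult basal and 6 in fetal cells (backgrounds 32.0% and 31.8%). Prlr, 1 of these 3, had a second probe at 1.85, called higher in fetal cells. Interferon-stimulated genes are also abundant in leukocytes, which the sort depleted by CD45. Of 12 leukocyte markers 11 were lower in fetal cells (52.5% of all genes). By Holm 0 were called higher in adult basal cells (background 5.21%), 5 were with Benjamini-Hochberg adjustment (background 13.9%) and 6 had an unadjusted p below 0.05 in limma (background 32.0%), and 0 were higher in fetal cells by any of these. Ptprc, which encodes CD45, measured 6.86, 7.29 and 7.05 in adult basal and 6.29, 7.25 and 6.72 in fetal cells, with overlapping groups. Cd52 measured 8.19, 7.39 and 9.80 against 3.82, 3.33 and 5.07, and Cd74, the invariant chain, 10.29, 9.90 and 10.80 against 7.49, 7.47 and 7.66. Of the 12 markers 7 were highest on the third adult basal array. The summed linear signal of the 12 markers was 31442, 40242 and 37910 on the adult basal arrays and 38906, 32679 and 30659 on the fetal arrays, and each of the 12 was well above background on at least 1 array. These sums depend on which probe is read, and signals of different probes do not rank transcript levels. Itgam, by the brightest of its 3 probes, had the highest signal of the list over the 6 arrays, whereas its other probes were far dimmer, and without Itgam the sum was 20795, 21803 and 26473 on the adult basal and 20418, 16109 and 18495 on the fetal arrays. Much of that sum comes from Csf1r (means of 13.24 in adult basal and 13.18 in fetal cells) and Cd3e (12.13 and 12.07). The sums thus say little of dimmer markers such as Cd52 and Tyrobp (−2.80), or of leukocyte content.

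Stromal and blood markers were read in the same way. Of 6 fibroblast markers, Dcn (−3.78) and Pdgfrb (−4.34) were called higher in adult basal cells (background 5.21%). The others differed by −1.05 (Lum), −0.90 (Col1a2), −0.37 (Pdgfra) and −0.01 (Col1a1). All 6 were lower in fetal cells (52.5% of all genes). Of these 3 were called with Benjamini-Hochberg adjustment (background 13.9%) and 5 had an unadjusted p below 0.05 in limma (background 32.0%). The summed signal of the list was 14930, 17359 and 24378 in adult basal and 4875, 4950 and 6027 in fetal cells. Col1a2 had the highest mean log2 signal of the list over the 6 arrays, although on the adult basal arrays Dcn, at 13.04, 13.39 and 13.72, was above it. Of 5 endothelial markers tested 0 were called by Holm. Higher in adult basal cells, 3 were called with Benjamini-Hochberg adjustment (background 13.9%) and 3 had an unadjusted p below 0.05 in limma (background 32.0%). Cdh5 differed by −2.70 and Pecam1, the gene for the CD31 that the sort excluded, by −0.14. Of 2 globin genes tested 0 were called by Holm. Higher in fetal cells, 1 was called with Benjamini-Hochberg adjustment (background 15.8%) and 1 had an unadjusted p below 0.05 in limma (background 31.8%). Hbb-bt was at least 21.3-fold higher in fetal cells, and Hba-a1 differed by 0.47 with overlapping groups. Adult basal replicate 3 was the highest adult array for 5 of the 6 fibroblast markers. The part of these cell types in the members' differences was not tested.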

How the data were processed

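The authors deposited scanner files with spot intensities from Feature Extraction 11.0.1.1, which subtracts background within an array, and a log2 table that the authors quantile normalized in GeneSpring. The labels describe a T7-primed low-input labelling kit and the methods a whole-transcript one. The processed intensity was taken to log2 here, outlier spots (104 to 326 per array) were left out, values of spots that carry the same probe were averaged, and quantile normalization was applied over the 6 arrays. Of 55681 probes, 27235 had an accession, compared without its version, of 1 gene in a RefSeq table (GRCm38.p6). The 20448 probes above the lowest of 3 k-means clusters in at least 1 population were kept. For a probe kept through 1 population alone, this filter fixed the direction of its difference. The difference of each was fitted with limma 3.58.1 in R 4.3.3, with Holm adjustment over all probes tested. The brightest probe past the filter stood for a gene. An array had from 76.4% to 83.3% of its probes well above background and 0 saturated spots. The number of arrays limits the precision. Alternatives were other normalizations, background corrections, filters, adjustments and variance models, replicate number or slide as a block, each array left out, and other choices among a gene's probes.

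The members and the lists were chosen with earlier results of these data known. The text names every member, and gives each array's value for members called by Holm, receptors, STAT/IRF factors and members whose probes differ in call or sign. Of the other lists it names up to 10 called genes each, Jak1, Tyk2, Mavs and the interferon genes. Irf1's promoter, Ifngr2, Ifnlr1, Socs1 and genes that leaned toward fetal cells were added after their values were seen. One gene outside the 44 that the rule names is not reported here.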

Additional observations from a re-analysis of the deposited data

How the results depend on the processing

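The median difference of the members kept its direction under every alternative, with 37 of 40 members lower in fetal cells with normexp correction, 39 of 41 with the offset of 16, and from 38 of 42 (without adult basal replicate 1) to 41 of 42 under the others. The count of called members, 16, rose to 35 with Benjamini-Hochberg adjustment (29.7% of all genes called) and fell to 8 with no low-signal filter, where 20660 genes were tested and 4.46% of all genes were called, and to 10 with the replicate block (6.48% of all genes). Deviations of each array from the mean of its own population correlated by −0.03, 0.09 and 0.05 between same-numbered fetal and adult arrays. Between other pairs they correlated by between −0.13 and 0.12. With 3 arrays in each population, these values cannot show whether the numbers pair the samples. Leaving out 1 array at a time gave from 8 called members (without E18.5 fetal replicate 1) to 22 (without adult basal replicate 2), with 9 without adult basal replicate 1 or replicate 3, 13 without fetal replicate 2 and 10 without fetal replicate 3, and medians from −2.91 to −2.46. Called genes fell too, from 1769 of all genes to between 746 and 1519. Of the 16 called members, 16 kept their direction and 8 kept the call under all 18 alternatives, namely Dhx58, Ifit1, Irf7, Isg15, Oasl2, Rtp4, Samd9l and Usp18. Gbp3, Igtp, Irgm1, Stat2, Xaf1, Ifi44, Ifit3 and Parp14 lost it under at least 1, and leaving out any of the 6 arrays ended at least 1 of these calls. With slide as a block 12 were called (7.63% of all genes), without Gbp3, Igtp, Stat2 and Ifi44, and the replicate block also lost Irgm1 and Xaf1. Background handling moved the folds, which were over 1.5 times smaller for 8 of the 16 with normexp correction and for 2 with the offset of 16 before log2 (Ifit1 86.7, Ifit3 198). With each gene's most changed probe, a setting chosen after seeing the data, the median was −3.16. The direction reversed in 3 members that were not called. Ifnar1 was −0.0125 as the mean of its probes and −0.0216 without adult basal replicate 2 (range without 1 array −0.0216 to 1.07), Ifnar2 0.0297 with normexp correction and 0.223 with the slide block (range without 1 array −0.554 to 0.241), and Lgals3bp from −0.161 to 0.0825 without 1 array. The cause was not tested. Herc6 and Oas3 gave no value under some alternatives, where their probes fell below the filter. Signal over background limits the fetal values of Ifit1 and Ifit3.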
